A study of Mus musculus with 8 samples.

Results

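The proteasome is the large protease that degrades ubiquitin-tagged proteins, and the genes described here are those with a Psma, Psmb, Psmc, Psmd, Psme, Psmf or Psmg symbol followed by a number, without the immunoproteasome genes Psmb8, Psmb9 and Psmb10. The rule gave 45 of the 23699 gene entries of each library: 16 core particle genes (8 alpha and 8 beta subunits), 20 regulatory particle genes (6 ATPases and 14 non-ATPases), and 9 others, which are 4 activators, 1 inhibitor and 4 assembly factors. RNA-seq of 3T3-L1 cells, a mouse line of preadipocytes that can be turned into fat cells in culture, compared siFto cells (n = 4 libraries) with siCtr cells (n = 4 libraries). The siFto cells had been transfected for 24 h before they reached confluence with a mix of 3 Stealth siRNAs against Fto, which encodes an RNA demethylase. The siCtr cells received 3 nontargeted control siRNAs in the same way. All cells were grown in high-glucose medium with newborn calf serum, received 40 nM siRNA with Lipofectamine 2000 and were 2 days past confluence when their RNA was taken. This is a transient knockdown in 1 line, and the labels do not say whether the 4 libraries of a group are separate cultures, so p-values here measure the spread between libraries, which may be technical.

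The core particle is a barrel of stacked rings in which alpha subunits form the outer rings and gate the entry, and beta subunits form the inner rings and hold the proteolytic sites. The regulatory particle binds ubiquitin chains, removes them, and uses a ring of ATPases to unfold the substrate and push it into the barrel. When proteasome activity drops, the transcription factor NRF1, encoded by Nfe2l1, is known in mammalian cells to raise the transcription of many subunits together through antioxidant response elements (AREs) in their promoters.

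Fto itself had 13.8, 10.7, 12.3 and 11.6 FPKM in the 4 siFto libraries, against 54.6, 55.4, 56.2 and 55.2 FPKM in the 4 siCtr libraries. FPKM counts sequenced fragments scaled for transcript length and library size. The siFto mean was 78.1% below the siCtr mean (log2 fold change -2.15, limma adjusted p = 7.3e-08), and the groups did not overlap. All 9 fibroblast and preadipocyte markers examined were expressed, with summed levels of 9054 to 10546 FPKM in siFto libraries and 8231 to 8988 FPKM in siCtr libraries. The collagens made up most of these sums, and single markers differed in direction: Pdgfra had 203 to 212 FPKM in siFto libraries and 229 to 251 FPKM in siCtr libraries. The 4 mature adipocyte markers summed to 2.88 to 5.33 FPKM in siFto libraries and 3.88 to 13.7 FPKM in siCtr libraries, where siCtr replicate 4 alone sets the upper end, with 9.19 FPKM of Adipoq against 2.77 to 3.20 FPKM in the other siCtr libraries. The 4 epithelial markers summed to at most 0.042 FPKM in siFto libraries and 0.097 FPKM in siCtr libraries. The 3 endothelial markers summed to 0.18 to 0.34 FPKM in siFto libraries and 0.20 to 0.26 FPKM in siCtr libraries. Blood markers summed to 0.93 to 1.47 FPKM in siFto libraries and 0.72 to 1.24 FPKM in siCtr libraries, nearly all Cd68. Muscle markers summed to 1.46 to 2.15 FPKM in siFto libraries and 1.34 to 2.22 FPKM in siCtr libraries, nearly all Des. In bulk RNA, fewer cells of a type and less RNA per cell cannot be told apart. siCtr replicate 3 stood apart: it differed from the other 3 siCtr libraries by a median of 1.27 to 1.53 standard errors per gene, against 0.89 to 0.98 among those 3, so results are also given without it.

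Proteasome transcripts were abundant. After the knockdown 38 of 43 tested members had a limma adjusted p of 0.05 or more, against 9203 of all 11398 tested genes. Of the 45 genes, 43 had a mean of at least 1 FPKM and were tested. The other two are the germ cell alpha subunit Psma8, listed at 0 in all 8 libraries, and the thymus beta subunit Psmb11, with 0.011 to 0.036 FPKM in siFto libraries and 0.012 to 0.032 FPKM in siCtr libraries. In the fit over all genes 5 of the 43 were called at an adjusted p under 0.05 (11.6%), against 19.3% of the 11398 tested genes. Psmb5, Psmc5 and Psmd14 rose, which is 6.98% of the tested members against 6.97% of all tested genes, and Psmd10 and Psme4 fell, which is 4.65% against 12.3%. The same 5 were the ones whose siFto and siCtr values did not overlap, where 24.2% of all tested genes did not overlap (9.08% higher and 15.1% lower). The unadjusted limma p was under 0.05 for 8 of the 43 tested members, against 3697 of the 11398 tested genes (32.4%). Over all genes 794 were called higher and 1401 lower, and 1086 and 1218 with median-ratio scaling, where 4 members were called higher and 2 lower. Without siCtr replicate 3, 5 members were called higher, with Psmd9 and Psmf1 added, and 2 lower.

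**Figure D1:**
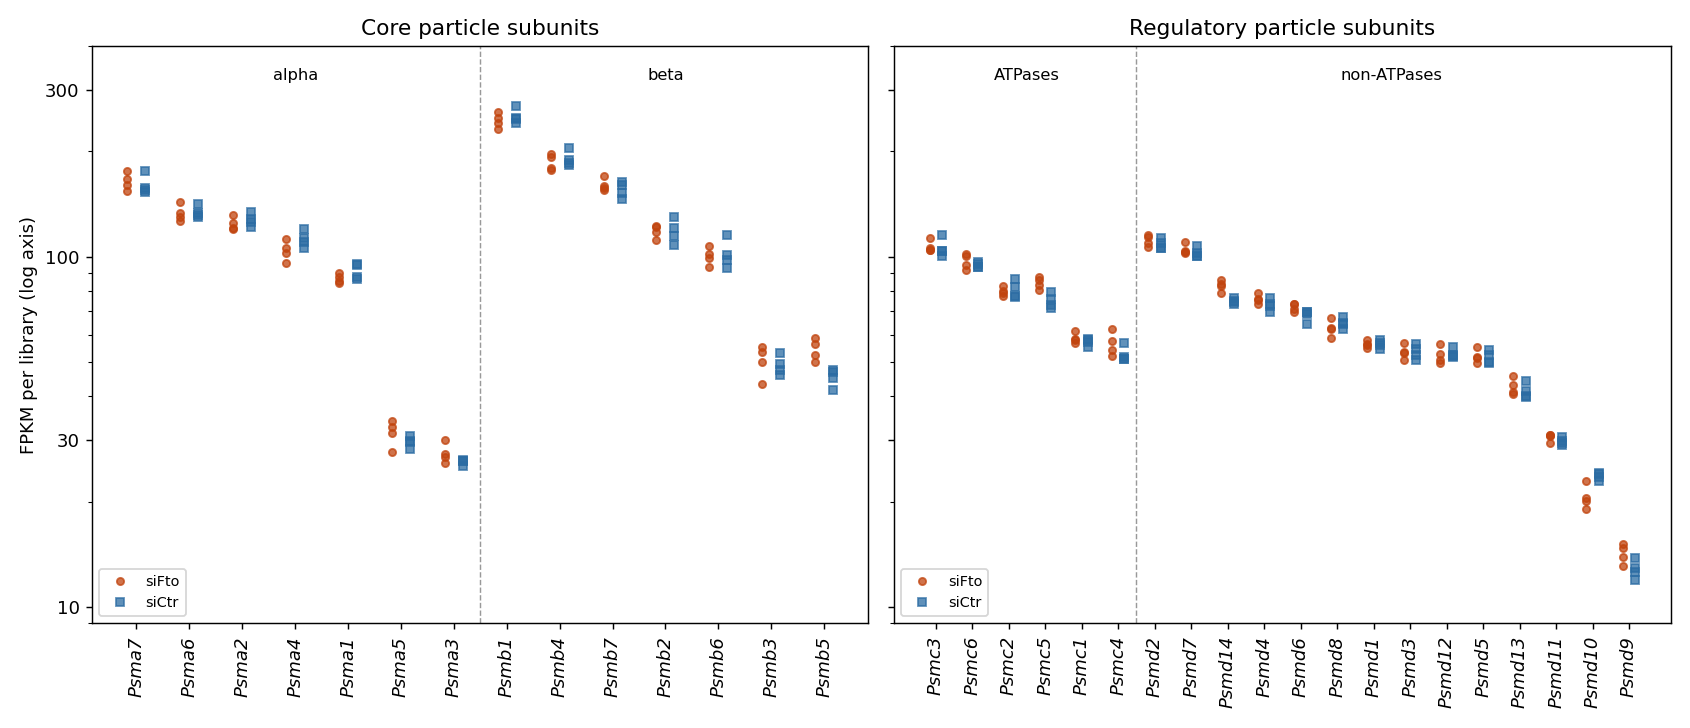
FPKM of the core (left) and regulatory (right) particle genes in each library, on a log axis, with siFto libraries as circles to the left of siCtr libraries as squares. Subunits of one particle spanned a wide range of levels, from 26.8 FPKM (Psma3) to 248.6 FPKM (Psmb1) in the core as means of 8 libraries, while the groups overlapped for all but Psmb5, Psmc5, Psmd14 and Psmd10.

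Levels per transcript length differed between subunits of one ring, and the order was described over the siCtr libraries. Among alpha subunits Psma7 was highest, with 166.9, 153.8, 160.6 and 175.9 FPKM in siFto libraries and 152.7, 155.5, 175.6 and 157.3 FPKM in siCtr libraries. Psma3 was the lowest tested alpha subunit, with 27.4, 25.8, 26.8 and 30.04 FPKM in siFto libraries and 26.2, 25.4, 26.2 and 26.3 FPKM in siCtr libraries. Both subunits had groups that overlapped, so their distance from each other was far larger than any difference between the groups. Between them came Psma6, Psma2, Psma4, Psma1 and Psma5 in falling order, and of the 6 neighbouring pairs only Psma6 and Psma2 overlapped among the siCtr libraries. Reads of Psma3 and Psma4 may be shared with the overlapping loci 3110056K07Rik and AY074887, since no source used here gives the strand handling.

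Among beta subunits Psmb1 was highest, with 231.8, 241.6, 249.7 and 259.4 FPKM in siFto libraries and 240.3, 248.2, 268.7 and 248.96 FPKM in siCtr libraries. Psmb5 was the lowest tested beta subunit in siCtr libraries, next to Psmb3, with which it overlapped there. Of the 3 subunits with proteolytic sites, Psmb6 (caspase-like activity) averaged 100.4 ± 5.79 FPKM in siFto cells and 101.9 ± 9.57 FPKM in siCtr cells, and Psmb7 (trypsin-like activity) 160.4 ± 6.86 FPKM in siFto cells and 155.7 ± 8.11 FPKM in siCtr cells (SD, n = 4 each). These stood well above Psmb5 (chymotrypsin-like activity), at 54.5 ± 3.88 FPKM in siFto cells and 45.3 ± 2.66 FPKM in siCtr cells. The reference annotation lists pseudogenes of Psmb5, Psmb6 and Psmb7, and no source used here says how reads shared with them were assigned. Psmb2 and Psmb6 also overlapped among siCtr libraries, and the other 4 neighbouring beta pairs did not.

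In the regulatory particle the ATPases, which unfold substrates, ranged over 54.6 to 106.6 FPKM as means of 8 libraries, from Psmc4 to Psmc3. Psmc3 had 106.1, 104.5, 104.8 and 113.1 FPKM in siFto libraries against 100.9, 103.8, 115.1 and 104.2 FPKM in siCtr libraries. Psmc4 had 57.6, 52.1, 54.2 and 62.2 FPKM in siFto libraries against 51.2, 51.2, 56.6 and 51.7 FPKM in siCtr libraries. Neither gene separated the groups. Among non-ATPases the scaffold subunit Psmd2 was highest, with 113.7, 106.6, 109.6 and 115.6 FPKM in siFto libraries and 105.8, 109.7, 106.3 and 113.0 FPKM in siCtr libraries. Psmd9, an assembly chaperone of the ATPase ring that carries a subunit symbol, was lowest, with 13.9, 13.2, 14.8 and 15.1 FPKM in siFto libraries and 12, 12.6, 13.8 and 12.9 FPKM in siCtr libraries. For Psmd9, siCtr replicate 3 lay above siFto replicate 2 and the groups were otherwise apart. Its log2 fold change of 0.15 ± 0.06 (SE) had an adjusted p of 0.099, and of 0.0413 without siCtr replicate 3, 0.0468 with median-ratio scaling and 0.0424 with quantile normalization. Neighbouring levels overlapped among siCtr libraries in 2 of 5 ATPase pairs and 6 of 13 non-ATPase pairs.

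Psmb5 was the core subunit that was called. Its locus in mm9, the build of the deposited files, is chromosome 14, 55232957 to 55236832. Psmb5 had 58.9, 50.2, 52.6 and 56.4 FPKM in siFto libraries, against 41.7, 44.99, 47.6 and 46.9 FPKM in siCtr libraries. All 4 siFto libraries lay above all 4 siCtr libraries. The log2 fold change was 0.26 ± 0.06 (SE; adjusted p = 0.011), and the exact two-sided permutation test gave p = 0.0286, the smallest that 4 against 4 libraries allow. The other 13 tested core genes had log2 fold changes of -0.11 to 0.08, with 95% intervals reaching no further than -0.23 and 0.21.

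A microRNA gene, Mir686, is annotated inside Psmb5. The hairpin lies on the same strand within exon 2 of 3 of the Psmb5 transcript in the GRCm38 annotation, at chr14:54616677-54616785, and all of its 109 bases occur in the 899-base transcript, as bases 266 to 374. The RefSeq hairpin is shown because each of its bases is also a base of Psmb5 messenger RNA, with the 22 bases of mmu-miR-686 in capitals.
Mir686 hairpin: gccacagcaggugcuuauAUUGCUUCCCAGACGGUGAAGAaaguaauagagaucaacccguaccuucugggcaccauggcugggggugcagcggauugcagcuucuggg
Mir686 was listed at 2.1e-06, 2.7e-06, 0 and 0 FPKM in siFto libraries, against 25.1, 10.7, 61.1 and 4.9e-07 FPKM in siCtr libraries. Each of these values carries the Cufflinks status LOWDATA rather than OK, so they are uncertain. Near-zero values thus stood in all 4 siFto libraries and in siCtr replicate 4. When the Mir686 value was added to Psmb5 in proportion to length, a step chosen after these values were seen, the siFto values stayed as above and the siCtr values became 44.7, 46.3, 55.0 and 46.9 FPKM. The groups then overlapped, and the log2 fold change of Psmb5 was 0.18 with an adjusted p of 0.103. The sum takes the full hairpin length and overstates the shared fragments if Cufflinks used a shorter effective length. How Cufflinks divided fragments between the 2 entries was not tested. siCtr replicate 4, in which Mir686 was near 0, had 46.9 FPKM of Psmb5, below every siFto library. siCtr replicate 3, with the highest Mir686 value, also had the highest Psmb5 of the siCtr libraries as deposited.

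**Figure D2:**
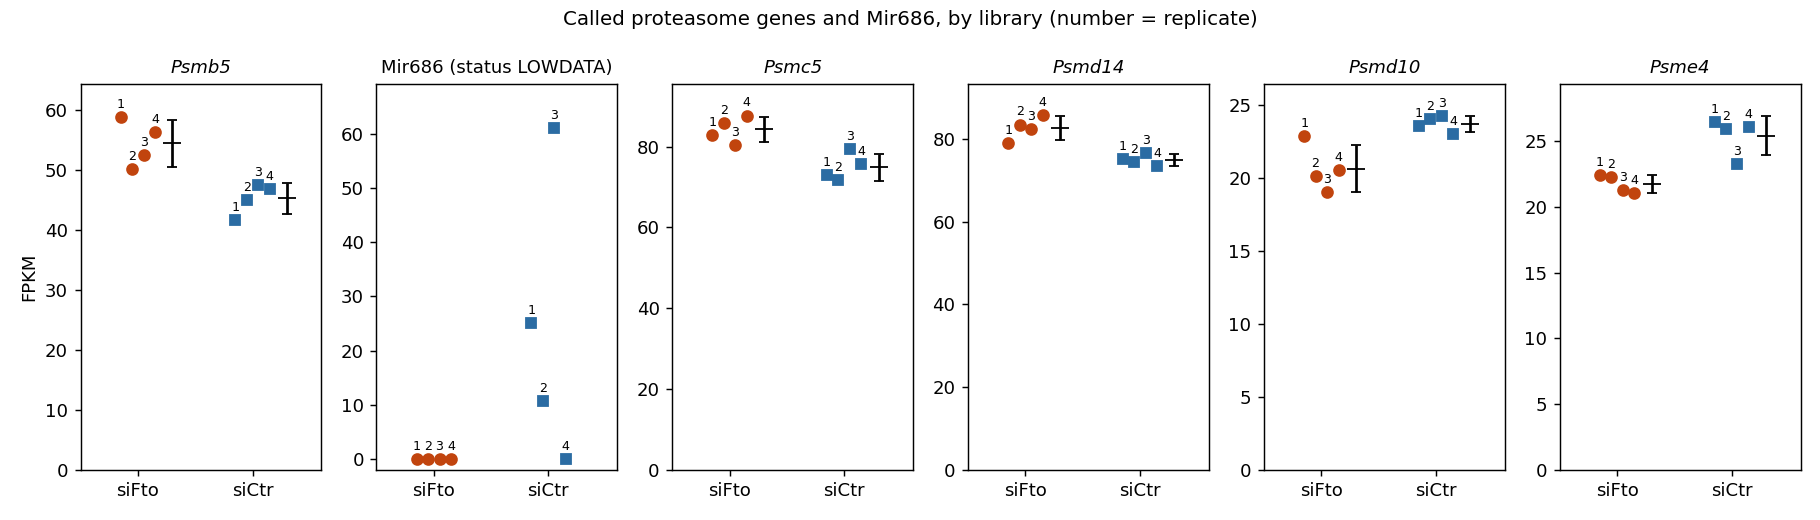
FPKM by library for the 5 called proteasome genes and for Mir686, with siFto to the left of siCtr, replicate numbers above the points, and mean ± SD (n = 4) beside them except for Mir686. Each called gene separated its groups. The 3 siCtr libraries with Mir686 at 10.7 to 61.1 FPKM include the 2 with the lowest Psmb5. They also include siCtr replicate 3, with the highest Mir686 and the highest Psmb5 of the siCtr libraries.

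Of the 20 regulatory particle genes 3 were called, and 1 to 4 when 1 library was left out. Whether this share differs from the 19.3% of all tested genes was not tested. Psmc5, an ATPase of the ring (mm9 chromosome 11, 106117499 to 106124426), had 82.9, 85.8, 80.5 and 87.7 FPKM in siFto libraries against 72.9, 71.6, 79.3 and 75.6 FPKM in siCtr libraries. The lowest siFto library lay just above siCtr replicate 3, and the log2 fold change was 0.17 ± 0.04 (SE; adjusted p = 0.018). Without siCtr replicate 2 the adjusted p was 0.0585, and without siFto replicate 4 it was 0.0507. Psmd14, the metalloprotease that takes ubiquitin chains off substrates (mm9 chromosome 2, 61549751 to 61638433), had 79.0, 83.5, 82.4 and 85.8 FPKM in siFto libraries against 75.1, 74.4, 76.6 and 73.3 FPKM in siCtr libraries. All siFto libraries lay above all siCtr libraries, with a log2 fold change of 0.14 ± 0.03 (SE; adjusted p = 0.016) that had an adjusted p of 0.0501 without siCtr replicate 4.

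Psmd10 fell. It encodes gankyrin, an assembly chaperone of the regulatory particle that is not part of the finished particle (mm9 chromosome X, 137482964 to 137491250). It had 22.9, 20.1, 19.0 and 20.6 FPKM in siFto libraries, against 23.6, 24.0, 24.2 and 23.0 FPKM in siCtr libraries. siFto replicate 1 lay just below the lowest siCtr library, and the other siFto libraries lay further down. The log2 fold change was -0.20 ± 0.05 (SE; adjusted p = 0.025). This was the least firm of the 5 calls: the adjusted p lay between 0.0555 and 0.0657 when siCtr replicate 2 or siFto replicate 2, 3 or 4 was left out, 0.0526 when no gene was filtered out, and 0.0797 without siCtr replicate 3 and siFto replicate 4. The other two assembly chaperones with Psmd symbols had log2 fold changes of 0.15 (Psmd9) and 0.01 (Psmd5), and neither was called.

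The remaining 17 regulatory genes had log2 fold changes of -0.04 to 0.15, with 95% intervals within -0.14 and 0.27. Of all 20, 14 values were above 0 and 6 below, and the median was 0.03. For the 14 tested core genes 7 were above and 7 below, with a median of -0.004, and the median over all tested genes was -0.02. The core median lay between -0.03 (without siFto replicate 4) and 0.05 (without siCtr replicate 3) over the alternatives, so its sign turns on single libraries. Absolute log2 fold changes under 0.1 were found for 81.4% of the tested members and 56.8% of all tested genes. The lowest tested member averaged 13.5 FPKM, a level reached by 53.7% of all tested genes, so the 2 shares compare genes of different levels.

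**Figure D3:**
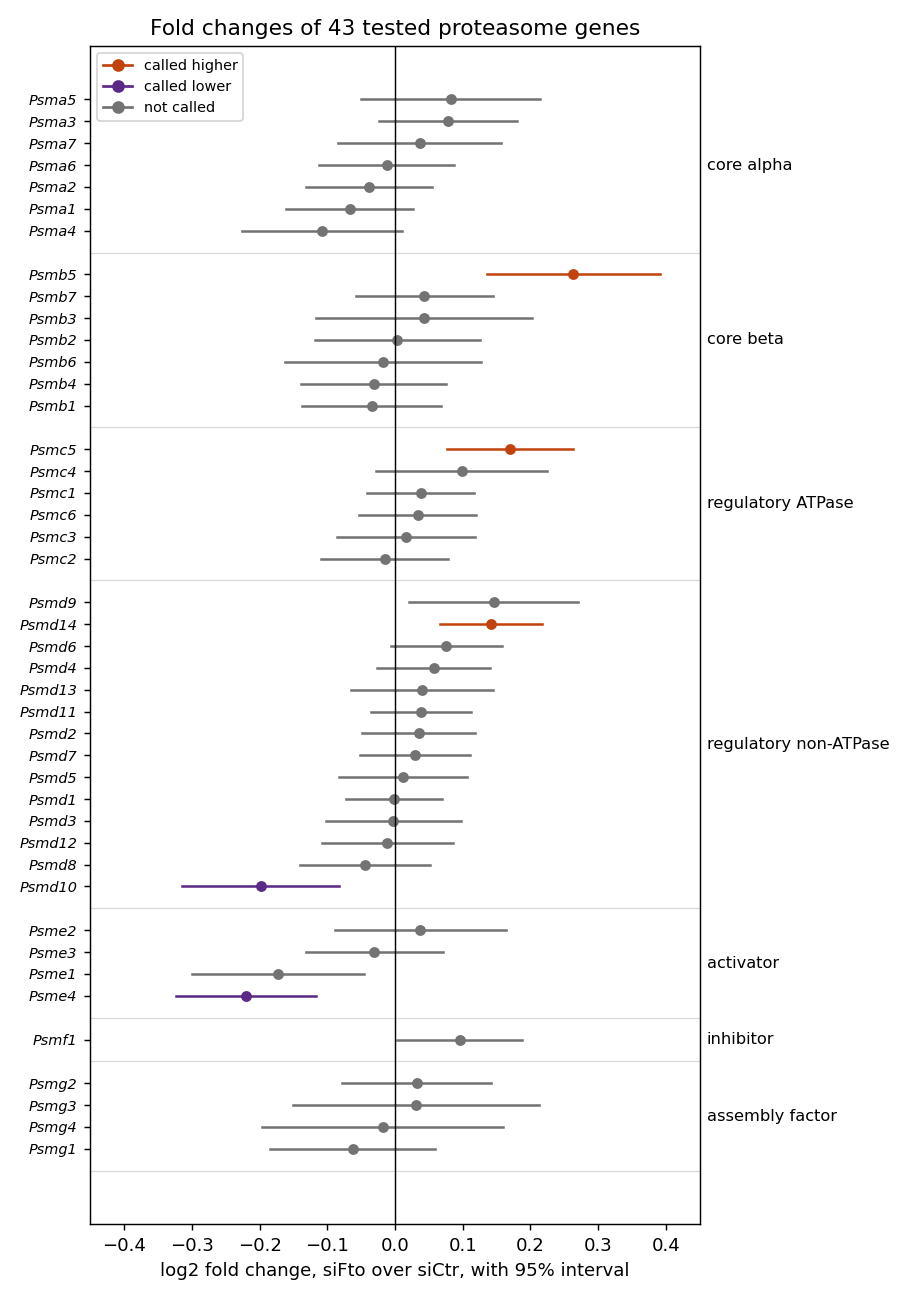
Log2 fold change (siFto over siCtr, on log2(FPKM + 0.5)) of each tested member with its 95% interval, by class, coloured by the call over all genes. Most points lay near 0, with 3 called higher (0.14 to 0.26) and 2 called lower (-0.22 and -0.20).

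**Figure D4:**
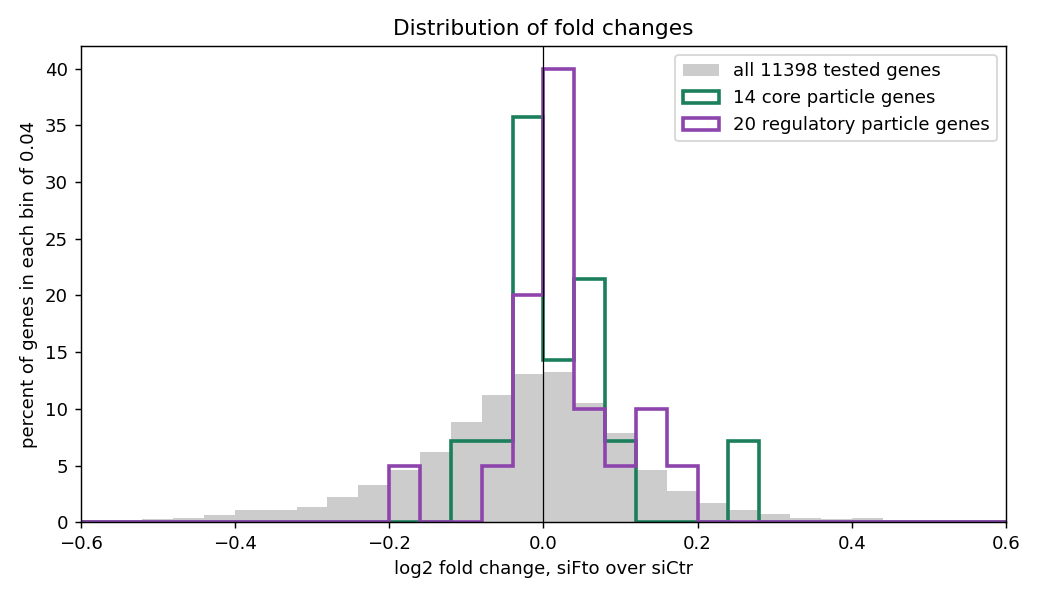
Percent of genes in bins of log2 fold change 0.04 wide, for all 11398 tested genes (grey), the 14 tested core genes (green) and the 20 regulatory genes (purple). The axis stops at 0.6 in both directions, which leaves out 152 of the tested genes and no member, and both particles were gathered around 0.

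Summed over the genes given by the rule, the core particle had 1565, 1538, 1570 and 1681 FPKM in siFto libraries and 1527, 1555, 1708 and 1584 FPKM in siCtr libraries. The regulatory particle had 1306, 1296, 1293 and 1368 FPKM in siFto libraries and 1250, 1263, 1324 and 1287 FPKM in siCtr libraries. Both sums overlapped between the groups. The ratio of core to regulatory sums was 1.20, 1.19, 1.21 and 1.23 in siFto libraries against 1.22, 1.23, 1.29 and 1.23 in siCtr libraries, and siFto replicate 4 lay above siCtr replicate 1. The regulatory sum follows gene symbols and so includes the assembly chaperones Psmd5, Psmd9 and Psmd10. It leaves out Adrm1 and Shfm1, counted here as proteasome-associated genes. Shfm1 alone averaged 545 FPKM in siFto cells and 522 FPKM in siCtr cells. The size of the ratio therefore depends on which genes are counted.

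Members moved together between libraries of the same group. siFto replicate 4 was the highest of its group for 30 of the 43 tested members, and siCtr replicate 3 for 34 of 43. How often these libraries were highest over all tested genes was not counted. In the core particle these counts were 11 and 13 of 14. The median deviation from the group mean over members was 0.07 log2 units in siFto replicate 4 and 0.08 in siCtr replicate 3, against 0.01 and 0.02 over all tested genes. These 2 libraries also had the largest FPKM sums over all genes of their groups, 473898 and 484842. Without both libraries, an alternative chosen after the data were seen, Psmb5, Psmc5 and Psmd14 were still called higher (adjusted p = 0.0253, 0.0153 and 0.0268) and Psme4 lower (adjusted p = 0.00373).

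**Figure D5:**
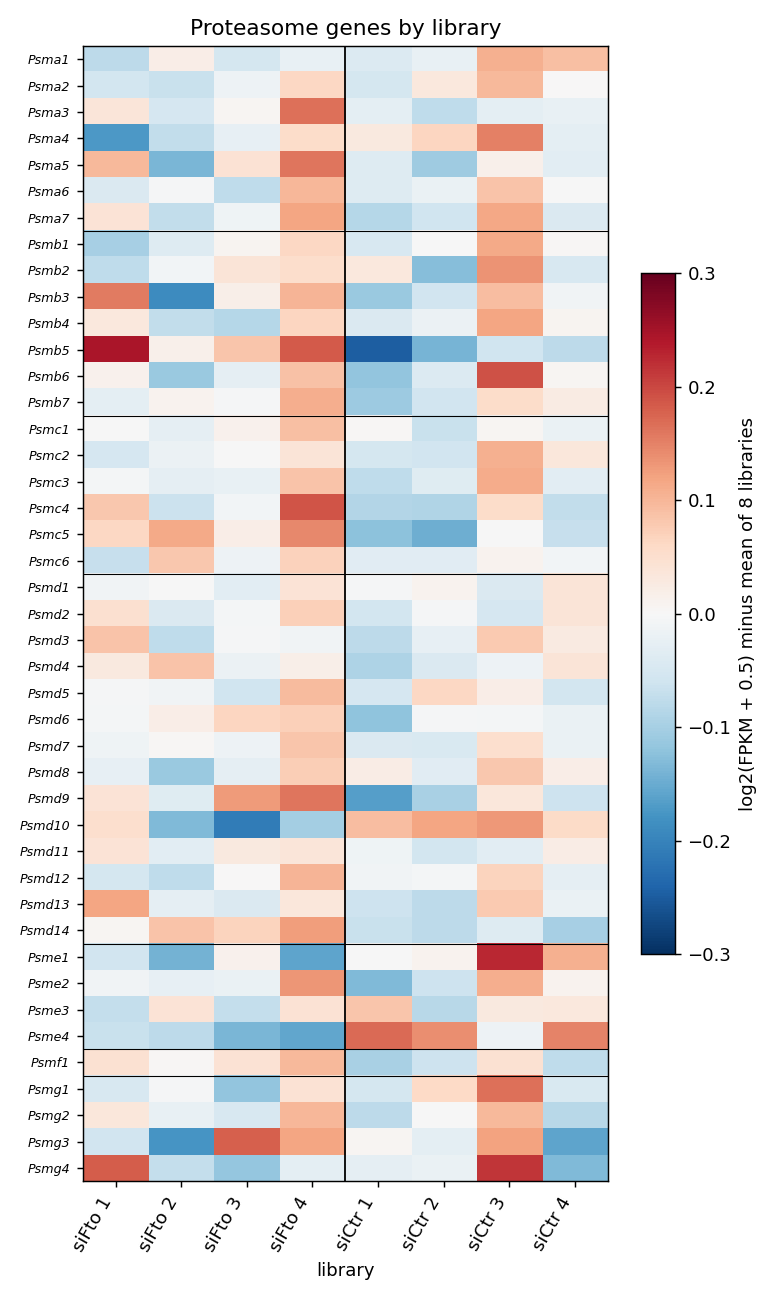
Deviation of each tested member in each library from its mean over 8 libraries, on log2(FPKM + 0.5), with siFto libraries left of siCtr libraries and lines between the classes in the order alpha, beta, ATPase, non-ATPase, activator, inhibitor, assembly factor. The columns of siFto replicate 4 and siCtr replicate 3 are mostly red, as they held the highest value of their group for 30 and 34 of 43 genes.

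The activators are caps that open the core without ubiquitin. Psme4, which encodes the large single-chain nuclear activator (mm9 chromosome 11, 30671775 to 30780361), had 22.4, 22.2, 21.3 and 21.0 FPKM in siFto libraries against 26.5, 25.9, 23.2 and 26.1 FPKM in siCtr libraries. All siFto values lay below all siCtr values, with siCtr replicate 3 the nearest. The log2 fold change was -0.22 ± 0.05 (SE; adjusted p = 0.0094), and Psme4 was called lower in all 18 alternatives run, with adjusted p from 0.00136 to 0.0312. Psme1, which builds the interferon-inducible cap together with Psme2, had 72.9, 68.7, 76.5 and 67.8 FPKM in siFto libraries and 75.8, 76.3, 88.8 and 81.7 FPKM in siCtr libraries. Only siFto replicate 3 overlapped the siCtr range, and the log2 fold change of -0.17 ± 0.06 (SE) had an adjusted p of 0.06, and of 0.0469 without siFto replicate 3. The loci of Psme1 and Fam158a overlap, as do those of Psmd1 and Htr2b, so reads may be shared there too. Psme2, its partner, averaged 30.6 ± 1.68 FPKM in siFto cells and 29.9 ± 2.201 FPKM in siCtr cells, and Psme3, the nuclear homolog, 36.4 ± 1.68 FPKM in siFto cells and 37.1 ± 1.80 FPKM in siCtr cells (SD, n = 4 each).

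The proteasome inhibitor gene Psmf1 had 17.6, 17.1, 17.6 and 18.3 FPKM in siFto libraries and 15.9, 16.3, 17.6 and 16.1 FPKM in siCtr libraries. siCtr replicate 3 lay within the siFto range, and the log2 fold change of 0.10 ± 0.04 (SE) had an adjusted p of 0.14. Without siCtr replicate 3 it was 0.13 with an adjusted p of 0.0381. The 4 assembly factors of the core, which pair and guide the alpha subunits, were not called: Psmg1 averaged 31.5 ± 1.51 FPKM in siFto cells and 33.0 ± 2.43 FPKM in siCtr cells, and Psmg2 28.4 ± 1.32 FPKM in siFto cells and 27.8 ± 1.68 FPKM in siCtr cells. Psmg3 averaged 19.1 ± 2.18 FPKM in siFto cells and 18.6 ± 1.51 FPKM in siCtr cells, and Psmg4 34.5 ± 3.32 FPKM in siFto cells and 35.0 ± 3.72 FPKM in siCtr cells (SD, n = 4 each). Their log2 fold changes ran from -0.06 to 0.03, with 95% intervals within -0.20 and 0.21.

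The promoters of the 5 called genes are shown from 100 bases before to 30 bases after the RefSeq transcription start (GRCm38.p6), because calls in both directions let their letters be set side by side. Capitals mark matches on either strand to 3 motifs that were chosen after the calls were known: the ARE core TGACNNNGC, the CCAAT box CCAAT and the ETS word CCGGAA.
Psmb5, chr14:54617966-54618095, minus strand: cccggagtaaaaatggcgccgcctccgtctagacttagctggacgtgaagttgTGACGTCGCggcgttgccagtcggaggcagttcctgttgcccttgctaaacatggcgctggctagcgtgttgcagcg
Psmc5, chr11:106256085-106256214, plus strand: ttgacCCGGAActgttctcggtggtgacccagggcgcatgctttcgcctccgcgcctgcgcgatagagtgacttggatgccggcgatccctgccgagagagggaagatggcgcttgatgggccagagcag
Psmd14, chr2:61711594-61711723, plus strand: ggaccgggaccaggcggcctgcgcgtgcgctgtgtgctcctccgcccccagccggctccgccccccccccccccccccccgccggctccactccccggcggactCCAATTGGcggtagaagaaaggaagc
Psmd10, chrX:140956682-140956811, minus strand: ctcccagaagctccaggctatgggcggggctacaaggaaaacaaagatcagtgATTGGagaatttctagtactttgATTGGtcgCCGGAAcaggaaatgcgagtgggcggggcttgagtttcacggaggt
Psme4, chr11:30771675-30771804, plus strand: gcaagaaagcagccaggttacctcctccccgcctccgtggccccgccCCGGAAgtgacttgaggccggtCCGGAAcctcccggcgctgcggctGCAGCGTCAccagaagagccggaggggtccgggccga
Psmb5, which rose, and Psme4, which fell, each hold 1 ARE core, at positions -47 and -7 from the start. The 8 capitals of Psmd14 are a pair of overlapping CCAAT matches, 1 on each strand. No motif of the 3 was shared by all 3 promoters of genes that rose.

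RefSeq promoters were matched for 37 of the 45 members, read from 250 bases before to 50 after the start. The ARE core was in 6 of 37 (16.2%), against 1380 of 8099 tested genes and 12.4% of all 32851 promoters. CCAAT was in 13 of 37 (35.1%), against 44.0% and 37.4%. CCGGAA was in 20 of 37 (54.1%), against 33.0% and 14.9%. The shares of members are thus near those of tested genes for the first 2 motifs and higher for the third, as a description without a test. A match is not evidence of binding.

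The gene of the transcription factor NRF1 rose, with a larger log2 fold change than any member. Nfe2l1, which encodes NRF1, had 119.7, 118.3, 115.1 and 123.9 FPKM in siFto libraries, against 90.8, 91.3, 95.2 and 97.8 FPKM in siCtr libraries. Each siFto library lay above each siCtr library, and the log2 fold change was 0.35 ± 0.04 (SE; adjusted p = 0.00027), although siFto replicate 1 carries the status FAIL for this gene. The call of Nfe2l1 is 14.3% of the 7 genes of the NRF1 list, against 19.3% of all tested genes. None of the other 6 was called. Of the 7, 5 had log2 fold changes above 0 and 2 below. Ddi2, the protease that activates NRF1, had 11.1, 10.0, 9.89 and 10.1 FPKM in siFto libraries against 9.65, 8.57, 6.83 and 9.35 FPKM in siCtr libraries, without overlap but with an adjusted p of 0.079. Mafk went the other way, with 7.05, 5.82, 5.72 and 6.88 FPKM in siFto libraries against 7.14, 8.25, 6.90 and 7.55 FPKM in siCtr libraries. Its log2 fold change was -0.22 (adjusted p = 0.082), against 0.26 for Ddi2.

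Among 6 shuttle receptors, which carry ubiquitinated proteins to the proteasome, Ubqln2 fell and Ubqln1 rose, 33.3% of the list against 19.3% of all tested genes. Ubqln2 had 45.7, 44.3, 43.9 and 44.2 FPKM in siFto libraries against 60.5, 63.9, 67.7 and 60.7 FPKM in siCtr libraries (log2 fold change -0.50 ± 0.04 SE, adjusted p = 5.7e-05). Ubqln1 had 38.1, 38.3, 37.7 and 39.4 FPKM in siFto libraries against 35.3, 34.2, 34.8 and 31.9 FPKM in siCtr libraries (log2 fold change 0.17 ± 0.04 SE, adjusted p = 0.012). These 2 related receptors thus separated their groups in opposite directions. Among 10 genes of the unfoldase p97 and its cofactors 2 were called, a share close to the 19.3% of all tested genes. The groups did not overlap for 40.0% of this list, against 24.2% of all tested genes, with 2 higher and 2 lower. Ufd1l rose (log2 fold change 0.16, adjusted p = 0.026) and Ubxn1 fell (-0.15, adjusted p = 0.028). These calls held in 13 and 12 of 18 alternatives. Vcp, which encodes p97, had 0.03 on the same scale (adjusted p = 0.53).

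Of 11 tested cytosolic heat shock genes 18.2% were called, against 19.3% of all tested genes. Log2 fold changes were above 0 for 6 and below 0 for 5. The groups did not overlap for 36.4%, against 24.2% of all tested genes, with 3 higher and 1 lower. The lower gene was Hspa8 (-0.09, adjusted p = 0.095), which was not called. The inducible chaperones Hspa1a and Hspa1b rose (log2 fold changes 0.26 and 0.30, adjusted p = 0.012 and 0.0096). Hspa1a had 10.4 to 11.6 FPKM in siFto libraries and 8.12 to 9.53 FPKM in siCtr libraries. Hspa1a and Hspa1b are near-identical copies, so how reads were split between them is uncertain, and they are not independent counts. Among 12 SCF and cullin genes, which build ubiquitin ligases, 16.7% were called, against 19.3% of all tested genes. Cul1 fell (-0.11, adjusted p = 0.035) and Cul4a rose (0.10, adjusted p = 0.047), but these calls held in 7 and 5 of 18 alternatives. The COP9 signalosome, a relative of the regulatory particle lid that removes NEDD8 from cullins, was added after Cops4 was seen in the data. Of its 9 genes 22.2% were called, against 19.3% of all tested genes. Cops4 fell, with 51.8, 50.6, 51.1 and 53.3 FPKM in siFto libraries against 66.4, 66.2, 64.5 and 67.1 FPKM in siCtr libraries (log2 fold change -0.35 ± 0.03 SE, adjusted p = 8.6e-05). Cops7a also fell (-0.14, adjusted p = 0.046), a call that held in 9 of 18 alternatives.

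No gene was called by limma among the 3 immunoproteasome genes, the 11 tested proteasome-associated genes and the 6 genes of ubiquitin and its E1 enzymes, where 1, 2 and 1 passed an unadjusted p under 0.05. Over all tested genes 19.3% were called and 32.4% passed the unadjusted threshold. The immunoproteasome subunit Psmb8 averaged 4.93 ± 0.73 FPKM in siFto cells and 6.04 ± 0.66 FPKM in siCtr cells (adjusted p = 0.084), and Psmb9 2.76 ± 0.19 FPKM in siFto cells and 3.66 ± 1.09 FPKM in siCtr cells (adjusted p = 0.18; SD, n = 4 each). The third, Psmb10, averaged 29.6 ± 1.77 FPKM in siFto cells and 30.03 ± 0.85 FPKM in siCtr cells. Of the associated genes, Fbxo7 (adjusted p = 0.064) and the ubiquitin receptor Adrm1 (adjusted p = 0.11) had the lowest p, with log2 fold changes of -0.15 and 0.15. Of the ubiquitin genes, Rps27a (0.10, adjusted p = 0.14) and Uba6 (-0.14, adjusted p = 0.19) had the lowest p.

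The 3′ UTRs of the proteasome genes were short and held neither of the words examined here. GACCTTA and ACCTTAA were picked on these data for their carriers' low fold changes, so their presence supports no direction. In the longest annotated 3′ UTR of each gene (GENCODE M21), 0 of 42 members held either word, against 1283 of 9819 tested genes (13.1%). The median 3′ UTR was 295 bases for members and 1199 bases for all tested genes, and the part of length in this difference was not tested. Of the tested genes without either word 7.6% were called higher and 10.7% lower, and of those with a word 4.6% and 25.3%. The choice of the words on these data built in this difference, so it is no evidence about them. Psmd10 and Psme4, which fell, hold neither word. Ubqln2 and Cops4, picked for this search with their values known, each hold a match once, in capitals here.
Ubqln2, 3′ UTR: attgtatatGACCTTAAtctttgtgca
Cops4, 3′ UTR: ttgcatcatGACCTTAgacatctcagc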

How the data were processed

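Total RNA of 3T3-L1 cells was made into 8 Illumina libraries, per the labels' protocols. FPKM per gene, with intervals and a status, were deposited by the authors, 1 table per library. TopHat2 2.0.11, Cufflinks 2.2.1 and mm9 are named in the submitters' processing notes, and no source used here gives strand handling or read counts. Depth is therefore unknown. As a guide, the deposited upper bound lay a median of 4.61% to 5.14% above the FPKM of members, covering counting error only. FPKM are relative levels, so a change in a few abundant genes shifts all others. Compiled tables were not used here.

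The 8 tables were joined by gene and locus. log2(FPKM + 0.5) of the 11398 genes with a mean of at least 1 FPKM was fitted with limma 3.58.1 in R 4.3.3 (trend on, siFto over siCtr, two-sided, 6 residual degrees of freedom), and p-values were adjusted over all of them by Benjamini-Hochberg, with a threshold of 0.05. Fold changes on this scale understate low genes. Single genes also had an exact permutation test of FPKM. The fit was also run on simulated data, where most small added changes were not called. Intervals are limma's 95% intervals, unadjusted.

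The members, gene lists, tests and motifs were chosen with earlier results of these data known. Values per library are given for called members, the highest and lowest subunit of each class, Psme1 and the inhibitor, means for the other activators and the assembly factors, and values or fold changes of called genes, or else the 2 lowest p, for each other list. Psmd9 and Psmd5 beside Psmd10, Psmb6 and Psmb7, Vcp, Ddi2, Mafk, Psmb10 and Mir686 were named after their values were seen. Alternatives were pseudocounts of 0.1 and 1, other filters, median-ratio and quantile scaling, no trend, a replicate block, OK entries only, and leaving out libraries. Motifs were searched in RefSeq promoters and GENCODE transcripts with Python 3.11.15.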

Additional observations from a re-analysis of the deposited data

Results flagged for a closer look

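In 4 of 120 groups of 4 libraries, over tested members and the named genes of the other lists, 1 library lay far from the other three, with a gap to the nearest that exceeds the 95% critical value of Dixon's test, which chance gives in about 1 in 20 groups. Psme2 was highest in siFto replicate 4, at 33.153 FPKM against 29.7 to 29.96 in the other siFto libraries. Psmc4 was highest in siCtr replicate 3, at 56.641 FPKM against 51.2 to 51.7 in the other siCtr libraries. Psma3 was lowest in siCtr replicate 2, at 25.351 FPKM against 26.2 to 26.3, and Psmd6 was lowest in siCtr replicate 1, at 64.259 FPKM against 68.9 to 69.7. None of these 4 genes was called. The first 2 are the libraries in which most members were highest within their group.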

How the results depend on the processing

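Over all tested genes the counts called higher and lower were 794 and 1401, and 1086 and 1218 with median-ratio scaling, 1086 and 1207 with quantile normalization, and 628 and 1133 with a replicate block. Leaving out 1 library gave 550 to 941 higher and 992 to 1433 lower. No pairing by replicate number was seen (correlations of same-numbered deviations 0.0736, -0.0402, -0.19 and -0.0895). Differently numbered deviations had correlations of -0.178 to 0.176. Whether the numbers pair the samples is not known. Under the replicate block the other members called were 2, with Psme1 added (adjusted p = 0.037; 0.0469 without siFto replicate 3), the proteasome-associated genes 1, the NRF1 list 2, p97 and cofactors 1, SCF and cullins 0 and COP9 1.

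Psmb5 and Psme4 were called in each alternative run on the deposited Psmb5 values, and Psmb5 lost its call only when the Mir686 signal was added. Members called higher were 2 to 5 and lower 1 to 2 when 1 library was left out, with 5 higher without siCtr replicate 3, where Psmd9 and Psmf1 were added. Lower calls were 1 with no filter on low values and 1 without siCtr replicate 3 and siFto replicate 4. Leave-one-out counts were 1 to 4 for the regulatory particle, 1 to 2 for the other members, 0 to 1 for the immunoproteasome, 0 to 2 for proteasome-associated genes, 0 to 2 for ubiquitin and E1, 0 to 2 for p97 and cofactors, 0 to 1 for SCF and cullins and 1 to 2 for COP9. Without siCtr replicate 3 and siFto replicate 4 the proteasome-associated, ubiquitin and E1, p97 and SCF lists had 1 call each. With no filter p97 and COP9 had 1 call each, and without a trend COP9 had 1 and SCF and cullins 0. SCF and cullins had 1 call with a filter at 5 FPKM, 1 with median-ratio scaling and 0 with quantile normalization. Heat shock genes had 5 calls with median-ratio scaling and 4 with quantile normalization, and ubiquitin and E1 had 1 with quantile normalization. The NRF1 list had 0 when entries without an OK status were left out, since Nfe2l1 was then not tested.

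Directions that turned were all of uncalled members near 0. With median-ratio scaling, which shifts all log2 fold changes upward, the value became 0.0077 for Psma6, 0.0016 for Psmb6, 0.0045 for Psmc2, 0.019 for Psmd1, 0.017 for Psmd3, 0.0080 for Psmd12 and 0.0013 for Psmg4, and with quantile normalization 0.0011 for Psmd3. Leave-one-out values ran, for each reversed member, from -0.047 to 0.014 for Psma6, -0.038 to 0.049 for Psmb2, -0.0021 to 0.11 for Psmb3, -0.058 to 0.0025 for Psmb4, -0.061 to 0.042 for Psmb6, -0.037 to 0.018 for Psmc2, -0.010 to 0.056 for Psmc3, -0.016 to 0.012 for Psmd1, -0.031 to 0.024 for Psmd3, -0.018 to 0.034 for Psmd5, -0.048 to 0.012 for Psmd12, -0.00047 to 0.081 for Psme2, -0.023 to 0.095 for Psmg3 and -0.082 to 0.05 for Psmg4. Without siCtr replicate 3 and siFto replicate 4 the values were 0.0098 for Psmb6, 0.0020 for Psmc2, -0.029 for Psmd1, 0.027 for Psmd3, -0.0099 for Psmd5 and 0.057 for Psmg4. The causes were not tested. The intervals given come from the spread between libraries, so differences within them may have gone undetected rather than being absent. Depth is unknown.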
